A study of Arabidopsis thaliana with 32 samples.

Results

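The genotype by sulfur interaction in Arabidopsis shoots is the difference between 2 sulfur responses. For each gene it is the log2 change of q-lsu-KO shoots, [dS] over [nS], minus the same change of WT shoots. It was taken over all 16 shoot libraries of the 32 libraries in the study, and 62 of 14593 tested genes passed the test. The libraries fall into 4 groups of 4. These are q-lsu-KO shoots under [dS], q-lsu-KO shoots under [nS], WT shoots under [dS] and WT shoots under [nS]. WT is the Col-0 ecotype. The q-lsu-KO line is reported to carry a deletion in every LSU gene, and it is 1 line. Seedlings of all groups grew on diluted Hoagland agar with normal sulfur for 10 days, spent the next 5 days under either [nS] or [dS], and were harvested on day 15. In the [dS] medium magnesium chloride took the place of magnesium sulfate, and each sample pooled several seedlings. The measurement is 3′RNA-seq, which counts reads from the 3′ end of transcripts.

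Plants take up sulfate, reduce it and build it into cysteine, from which methionine and glutathione are made. When sulfate runs short, Arabidopsis raises sulfate transporters and enzymes that break down glutathione and glucosinolates (GSL), and lowers the synthesis of GSL, sulfur-rich defense compounds of the cabbage family. GSL are built from chain-elongated methionine (aliphatic GSL) or from tryptophan (indole GSL) by cytochromes P450, a C-S lyase, a glucosyltransferase and sulfotransferases, and the last of these use the activated sulfate PAPS. LSU proteins are small coiled-coil proteins whose genes are strong markers of sulfur deficiency. An interaction in such genes can arise at either end of the response, from a genotype difference already present under [nS] or from a different level reached under [dS], and both are given below for each gene.

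Shoot libraries held 1096342 to 2596083 counts for q-lsu-KO under [dS], 1223064 to 1743661 for q-lsu-KO under [nS], 2316770 to 2857129 for WT under [dS] and 1440122 to 2032330 for WT under [nS]. Values below are CPM, counts relative to the library total, scaled for library composition by TMM factors, and they are compared within a gene only. The study calls the libraries of a group biological replicates. Whether they came from separate plates is not stated, and p-values rest on the spread among them. Both genotypes shared a sequencing pool, and each pool came from 1 tissue in 1 medium. Sulfur and pool cannot be told apart, while the interaction compares 2 genotype differences that were each taken within a pool. On the first principal component (51.8% of the variance of the 500 most variable genes), WT [dS] replicate 1 had a score of -1.31, and the other WT [dS] libraries had 13.9 to 15.7. Without that library 60 genes passed, of which 58 were among the 62. Without both that library and WT [nS] replicate 1, 54 genes passed, of which 51 were among the 62.

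LSU2 checked the genotype labels, with 3 to 25 counts in the 8 q-lsu-KO shoot libraries and 192 to 1123 in the 8 WT libraries. LSU1, LSU3 and LSU4 had reads in every q-lsu-KO library. Where their deletions lie is not given in the sources used here, and a 3′ tag outside a deleted stretch is no check of it. Of 12 root markers, PYK10, a beta-glucosidase, was the only one to pass the filter on low counts, at 353 to 461 CPM in q-lsu-KO shoots under [dS], 425 to 582 CPM in q-lsu-KO shoots under [nS], 385 to 469 CPM in WT shoots under [dS] and 539 to 617 CPM in WT shoots under [nS]. The others had between 0 and 9 counts in any shoot library, and the part of root tissue in the results was not tested. The summed level of 17 photosynthesis genes, the check of the tissue, was 77646 to 87319 CPM in q-lsu-KO shoots under [dS], 97379 to 104823 CPM in q-lsu-KO shoots under [nS], 79300 to 88893 CPM in WT shoots under [dS] and 98348 to 102880 CPM in WT shoots under [nS]. In bulk shoots, fewer cells of a type and less RNA per cell cannot be told apart.

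Of the 62 genes, 35 had a positive interaction term (0.24% of all genes tested) and 27 a negative one (0.185%). Genes were tested by quasi-likelihood in edgeR, with a Benjamini-Hochberg adjusted p under 0.05 over all tested genes and a term over 1.5-fold. The unadjusted p was under 0.05 for 900 genes, and the median term of all genes was -0.01. Called genes were the better expressed ones. At a mean log2 CPM of 6 or more, 31 of 2388 genes were called, against 31 of 10109 between 3 and 6 and 0 of 2096 below 3, where the median SE of the term was 0.50 on the log2 scale (0.13 in the highest class). A small interaction in a weakly expressed gene was therefore not detectable at this depth.

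Nearly all negative terms belonged to genes of which q-lsu-KO shoots held more transcript already under [nS]. Of the 27 genes, 26 rose under [dS] in WT shoots, and 22 of these also rose in q-lsu-KO shoots, each by less. The median sulfur response was 1.05 on the log2 scale in q-lsu-KO shoots and 2.46 in WT shoots. The median genotype difference, q-lsu-KO over WT, was -0.03 under [dS] and 1.17 under [nS]. For 25 of the 27 it was less than 1.5-fold in size under [dS]. These simple contrasts share libraries with the interaction and describe it; they are no further evidence for it.

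Nearly all positive terms belonged to genes of which q-lsu-KO shoots held less transcript under [nS]. Of the 35 genes, 30 fell under [dS] in WT shoots, and 11 of these also fell in q-lsu-KO shoots, by less, while 17 passed in WT shoots only. The median sulfur response was -0.19 in q-lsu-KO shoots and -1.59 in WT shoots. The median genotype difference was 0.23 under [dS] and -1.09 under [nS], and for 30 of the 35 it was less than 1.5-fold in size under [dS].

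**Figure D1:**
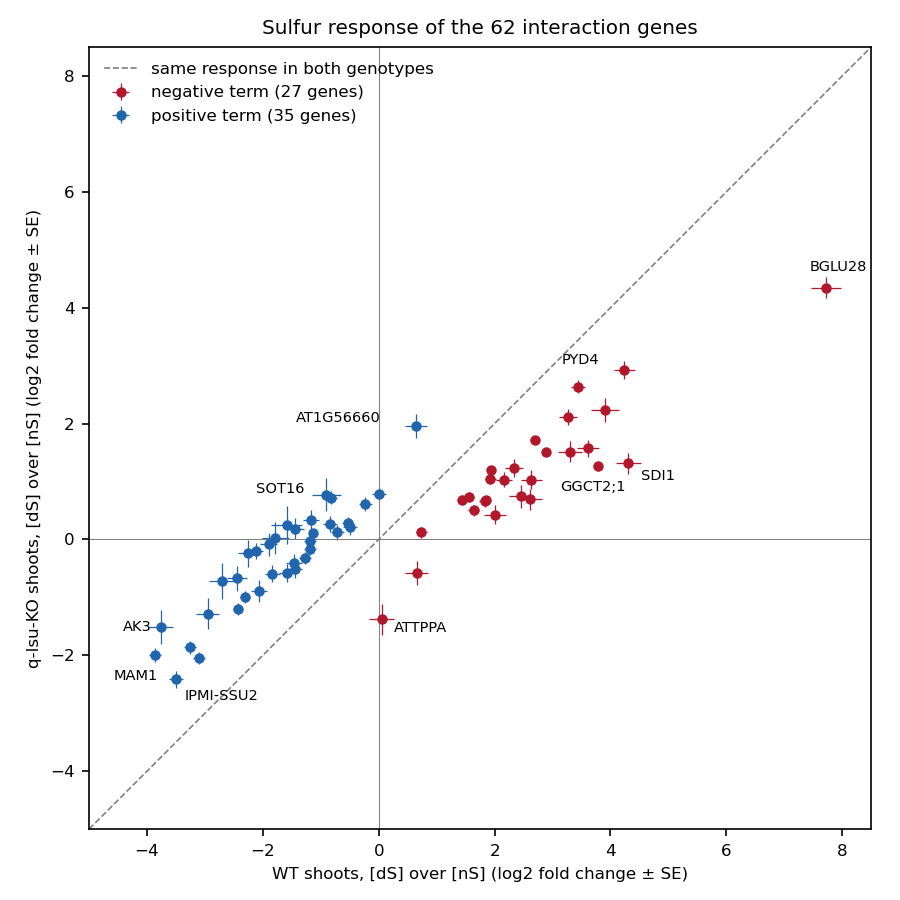
Sulfur response ([dS] over [nS], log2 fold change ± SE) of the 62 interaction genes in q-lsu-KO shoots (vertical axis) and WT shoots (horizontal axis), each point a gene, with the dashed line marking equal responses. Genes with a negative term (27) lie below the line, mostly at positive responses in both genotypes, and genes with a positive term (35) lie above it, mostly at negative WT responses.

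Over all 62 genes, the genotype difference was at least 2 times larger under [nS] than under [dS] in 50 and at least 2 times larger under [dS] in 3, with 9 in between. The genotype difference itself passed for 56 of the 62 genes under [nS] and for 6 under [dS]. Over all tested genes, q-lsu-KO and WT shoots differed in 608 genes under [dS] (4.17%) and in 704 under [nS] (4.82%). Of these, 515 were higher and 93 lower in the mutant under [dS], and 490 were higher and 214 lower under [nS]. Sulfur changed 1760 genes in q-lsu-KO shoots (12.1%) and 1666 in WT shoots (11.4%). Among the 902 genes that rose in WT shoots, whose choice favors the WT value, the median response was 0.84 in q-lsu-KO and 0.95 in WT shoots, and 27 of them had an interaction that passed.

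**Figure D2:**
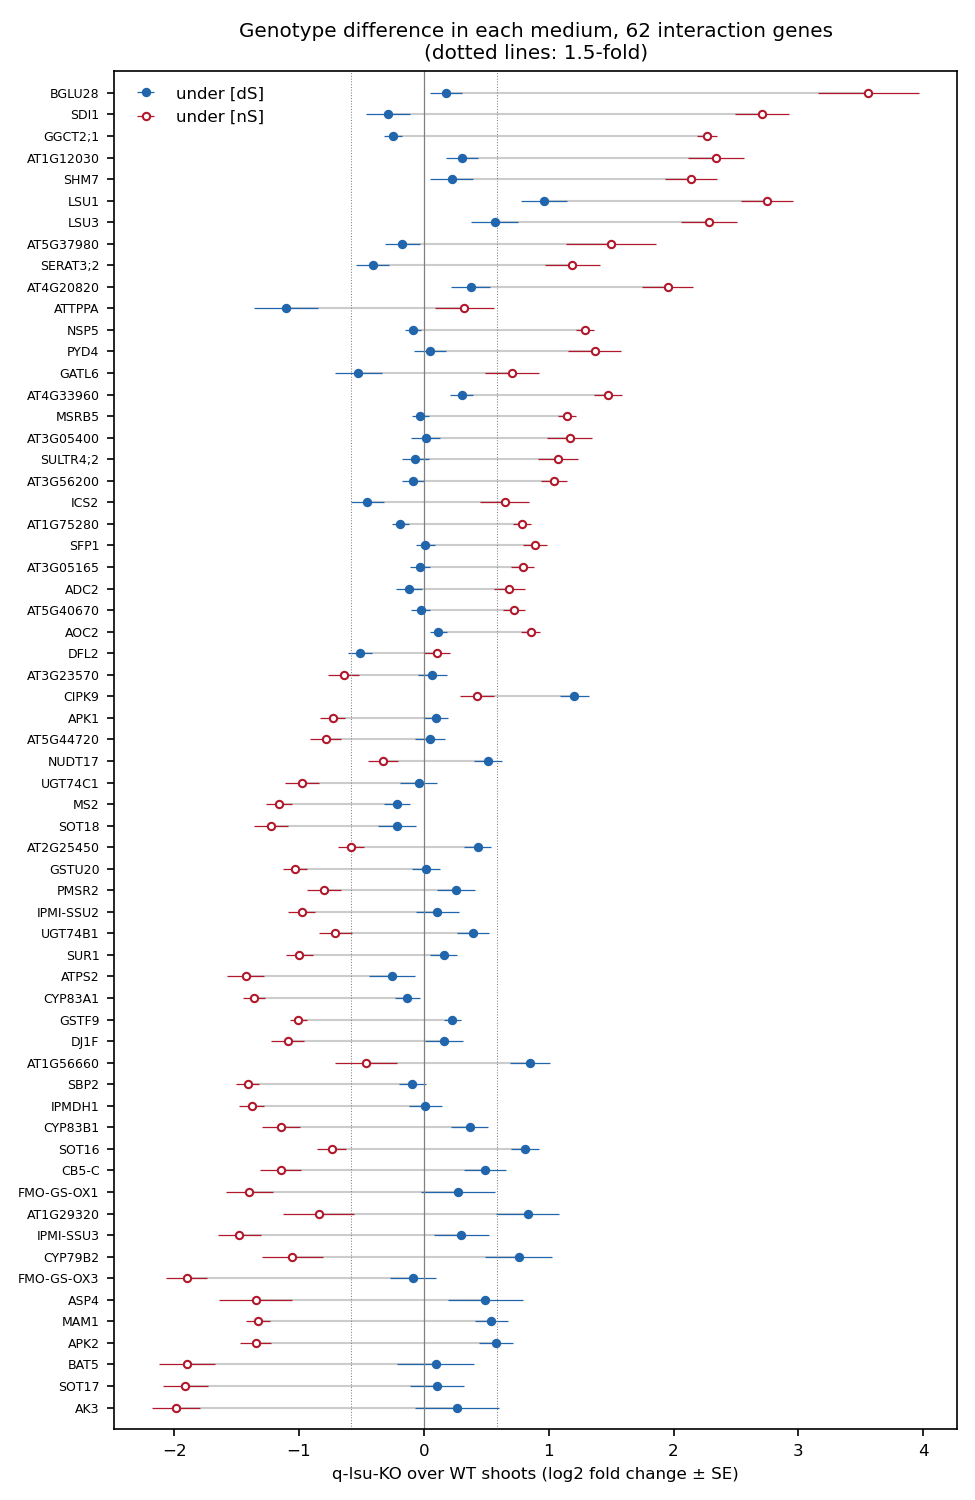
Difference between q-lsu-KO and WT shoots (log2 fold change ± SE) under [dS] (filled blue) and under [nS] (open red) for each of the 62 interaction genes, ordered from the most negative term (top) to the most positive (bottom). Most open points lie outside the dotted 1.5-fold lines (56 of 62 passed) and most filled points lie between them (6 of 62 passed).

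The genes with the most negative terms include enzymes and regulators that release or save sulfur. SDI1 (AT5G48850), a repressor of aliphatic GSL synthesis that binds the transcription factor MYB28, had 1122, 1055, 1018 and 994 CPM in q-lsu-KO shoots under [dS] and 417, 454, 411 and 402 CPM in q-lsu-KO shoots under [nS]. In WT shoots it had 1300, 1164, 1311 and 1332 CPM under [dS] and 31.2, 57.0, 88.3 and 84.6 CPM under [nS]. Under [nS] the q-lsu-KO values were all higher than the WT values, by 6.53-fold on average. Under [dS] they were all lower, but that difference did not pass (-0.29 on the log2 scale, edgeR adjusted p = 0.466). The interaction term was -2.99 ± 0.28 (log2 ± SE, adjusted p = 7.93e-05, edgeR).

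GGCT2;1 (AT5G26220), a gamma-glutamyl cyclotransferase that degrades glutathione in the cytosol, had the smallest p of all genes (term -2.52 ± 0.11, edgeR adjusted p = 8.49e-22). Its level was 912, 850, 818 and 834 CPM in q-lsu-KO shoots under [dS] and 380, 390, 346 and 310 CPM in q-lsu-KO shoots under [nS]. In WT shoots it was 976, 1057, 1055 and 968 CPM under [dS] and 63.0, 77.5, 86.9 and 70.2 CPM under [nS]. The groups did not overlap in either medium, and the genotype difference was 4.82-fold under [nS] with q-lsu-KO higher. Both genotypes gained transcript under [dS], 2.39-fold in q-lsu-KO and 13.7-fold in WT shoots.

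BGLU28 (AT2G44460), a beta-glucosidase that cleaves GSL in sulfur-starved plants, had the most negative term of all (-3.38 ± 0.43, edgeR adjusted p = 0.000528). It had 360, 320, 476 and 431 CPM in q-lsu-KO shoots under [dS] and 22.2, 16.8, 18 and 20.2 CPM in q-lsu-KO shoots under [nS]. WT shoots had 318, 328, 364 and 383 CPM under [dS] and 0, 1.76, 2.12 and 2.68 CPM under [nS]. Only the [nS] groups were apart, and the WT [nS] values rest on a few counts a library. In mean CPM, q-lsu-KO shoots gained 30.4 more than WT shoots under [dS], opposite in sign to the term. That amount was not tested, and the [dS] groups had SDs of 69.9 CPM in q-lsu-KO and 30.3 CPM in WT shoots.

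NSP5 (AT5G48180), a nitrile-specifier protein that directs GSL breakdown toward nitriles, had 1037, 1003, 1089 and 1068 CPM in q-lsu-KO shoots under [dS] and 379, 398, 378 and 326 CPM in q-lsu-KO shoots under [nS]. WT shoots had 997, 1056, 1187 and 1217 CPM under [dS] and 146, 149, 153 and 157 CPM under [nS]. The groups overlapped under [dS] and were apart under [nS], with a term of -1.38 ± 0.10 (edgeR adjusted p = 4.74e-14). SULTR4;2 (AT3G12520), which carries sulfate out of the vacuole, had 70.5, 71.7, 74.6 and 58.3 CPM in q-lsu-KO shoots under [dS] and 35, 29.4, 31.9 and 38.7 CPM in q-lsu-KO shoots under [nS]. Its WT levels were 70.4, 62.8, 71.7 and 82.6 CPM under [dS] and 14.1, 15.9, 19.1 and 15.5 CPM under [nS]. It was the only sulfate transporter of 8 tested that passed, at -1.14 ± 0.19 (edgeR adjusted p = 0.000271).

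Enzymes of serine, cysteine and methionine metabolism were among the negative terms. SHM7, a serine hydroxymethyltransferase, averaged 319 ± 55.2 CPM in q-lsu-KO and 272 ± 35.3 CPM in WT shoots under [dS], and 197 ± 26.1 CPM in q-lsu-KO and 44.9 ± 12.9 CPM in WT shoots under [nS] (SD, n = 4 each). Most of the WT response was thus present in q-lsu-KO shoots under [nS], where the genotype difference of 2.14 on the log2 scale was 82.0% of the WT sulfur response of 2.61. SERAT3;2, a serine acetyltransferase of cysteine synthesis, averaged 43.0 ± 7.15 CPM in q-lsu-KO and 58.3 ± 7.29 CPM in WT shoots under [dS], and 21.8 ± 4.76 CPM in q-lsu-KO and 9.61 ± 3.10 CPM in WT shoots under [nS] (SD, n = 4 each). MSRB5, which repairs oxidized methionine, averaged 860 ± 31.1 CPM in q-lsu-KO and 876 ± 54.2 CPM in WT shoots under [dS], and 539 ± 13.2 CPM in q-lsu-KO and 244 ± 29.5 CPM in WT shoots under [nS] (SD, n = 4 each). Its genotype difference was confined to [nS], and its term was -1.17 ± 0.10 (edgeR adjusted p = 7.09e-12). Tags of MSRB5 and other close copies may be shared in counting, likewise those of AOC2, SFP1 and AT3G05165.

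LSU1 and LSU3 themselves had negative terms. LSU1 had 2770, 2578, 2870 and 3023 CPM in q-lsu-KO shoots under [dS] and 970, 927, 1127 and 901 CPM in q-lsu-KO shoots under [nS]. WT shoots had 1380, 1195, 1582 and 1606 CPM under [dS] and 82.1, 139, 186 and 182 CPM under [nS]. The q-lsu-KO libraries were above the WT libraries in both media, by 1.95-fold under [dS] and 6.71-fold under [nS]. In mean CPM q-lsu-KO shoots gained 535 more than WT shoots, opposite in sign to the term, and that amount was not tested. The LSU3 term was -1.72 ± 0.29 (edgeR adjusted p = 0.0176), with the larger genotype difference again under [nS] (4.87-fold, against 1.48-fold under [dS]). Its call was lost without WT [dS] replicate 3 (adjusted p = 0.0516), WT [nS] replicate 2 (0.0557), q-lsu-KO [dS] replicate 2 (0.0592) or q-lsu-KO [nS] replicate 3 (0.0537) in the edgeR fit. LSU1 and LSU3 are neighbouring paralogs, and how far their tags can be told apart is not known. LSU2 (0.40 ± 0.38) and LSU4 (0.57 ± 0.45) did not pass. LSU4 had 77.2 to 119 CPM in q-lsu-KO and 7.63 to 12.6 CPM in WT shoots under [dS], and 22.7 to 37.3 CPM in q-lsu-KO and 2.52 to 12 CPM in WT shoots under [nS].

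The other negative terms were spread over transport, polyamine, hormone and uncharacterized genes. AT1G12030, of a family of unknown function, averaged 125 ± 19.3 CPM in q-lsu-KO and 100 ± 22.5 CPM in WT shoots under [dS], and 42.0 ± 5.17 CPM in q-lsu-KO and 8.20 ± 1.45 CPM in WT shoots under [nS] (SD, n = 4 each). ADC2, an arginine decarboxylase that starts polyamine synthesis, rose under [dS] by 6.21-fold in q-lsu-KO and 10.8-fold in WT shoots. AOC2, an allene oxide cyclase of jasmonate synthesis, averaged 1461 ± 44.6 CPM in q-lsu-KO and 1347 ± 193 CPM in WT shoots under [dS], and 637 ± 23.6 CPM in q-lsu-KO and 352 ± 28.3 CPM in WT shoots under [nS] (SD, n = 4 each). It was the only one of 22 tested jasmonate genes to pass. ICS2, an isochorismate synthase, and PYD4, annotated as PYRIMIDINE 4, had terms of -1.1 ± 0.24 and -1.32 ± 0.25. AT4G20820, of the berberine bridge enzyme family, averaged 98.9 ± 7.80 CPM in q-lsu-KO and 75.7 ± 14.8 CPM in WT shoots under [dS], and 73.6 ± 11.0 CPM in q-lsu-KO and 19.1 ± 7.06 CPM in WT shoots under [nS] (SD, n = 4 each), a genotype difference under [nS] of 97.4% of the WT sulfur response. AT4G33960 (uncharacterized), AT3G56200 (an amino acid transporter family member), AT1G75280 (annotated as NmrA-like), AT5G40670 (PQ-loop family), AT3G05400, SFP1 and AT3G05165 (major facilitator superfamily) had terms between -0.75 and -1.17. AT5G37980, annotated as a zinc-binding dehydrogenase, had a term of -1.67 ± 0.39.

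Promoters of the leading negative genes were read because one element, the sulfur-response element core GAGAC, is known from sulfur-deficiency promoters. The windows are the 300 bases before the annotated gene start in RefSeq's TAIR10.1 assembly, written along the gene's strand, with GAGAC or its reverse complement GTCTC in capitals. SDI1 is shown for its 2 copies, GGCT2;1 and BGLU28 for a single copy each, and AT2G25450, an oxoglutarate-dependent oxygenase with a positive term, for its 3 copies. They come from chr5:19807854-19808153 (minus strand), chr5:9164885-9165184 (minus), chr2:18346006-18346305 (plus) and chr2:10831656-10831955 (minus).
SDI1: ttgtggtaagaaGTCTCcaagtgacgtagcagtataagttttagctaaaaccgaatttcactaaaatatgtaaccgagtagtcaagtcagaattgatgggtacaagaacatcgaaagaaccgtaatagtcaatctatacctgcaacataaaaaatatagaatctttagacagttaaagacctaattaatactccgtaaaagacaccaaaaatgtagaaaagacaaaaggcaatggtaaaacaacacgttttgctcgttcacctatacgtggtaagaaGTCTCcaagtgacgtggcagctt
GGCT2;1: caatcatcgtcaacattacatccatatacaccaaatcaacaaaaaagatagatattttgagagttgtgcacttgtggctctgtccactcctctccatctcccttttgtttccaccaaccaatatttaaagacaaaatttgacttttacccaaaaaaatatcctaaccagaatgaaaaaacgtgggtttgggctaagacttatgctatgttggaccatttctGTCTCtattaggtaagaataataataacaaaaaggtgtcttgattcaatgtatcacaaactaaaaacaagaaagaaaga
BGLU28: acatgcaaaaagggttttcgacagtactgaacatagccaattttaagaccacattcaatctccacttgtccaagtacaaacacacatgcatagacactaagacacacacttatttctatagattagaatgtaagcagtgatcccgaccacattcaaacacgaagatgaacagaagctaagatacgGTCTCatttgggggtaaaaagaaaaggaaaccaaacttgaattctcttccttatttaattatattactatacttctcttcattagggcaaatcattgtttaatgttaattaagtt
AT2G25450: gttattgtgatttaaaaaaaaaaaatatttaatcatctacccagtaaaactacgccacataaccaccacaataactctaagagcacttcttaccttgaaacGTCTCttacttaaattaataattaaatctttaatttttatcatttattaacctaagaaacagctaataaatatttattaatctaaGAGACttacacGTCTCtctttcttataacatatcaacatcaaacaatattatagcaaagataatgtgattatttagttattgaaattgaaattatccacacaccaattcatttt
The core was in 8 of 27 windows of genes with a negative term (29.6%), 10 of 35 with a positive term (28.6%) and 4252 of 14502 windows of tested genes (29.3%). Its share was about the same in all 3 sets, and SHM7, LSU1, LSU3, MAM1, APK2 and SOT17 had none in this window. The W-box core TTGAC was in 37.0%, 45.7% and 49.3% of the same sets and the G-box CACGTG in 11.1%, 11.4% and 8.13%, each counted on both strands. A match is a description of the letters and not a binding site.

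GSL synthesis made up most of the positive terms. Of 44 distinct tested genes of 3 GSL lists, 20 passed, all with a positive term. Under [nS] all 20 had less transcript in q-lsu-KO shoots than in WT shoots. These lists were written with earlier results of these data known. In the aliphatic list 12 of 25 tested genes passed, the median term was 1.09 and all 25 terms were above 0. In the list of the shared core and PAPS supply 4 of 5 passed (median 1.1), and in the indole list 4 of 14 (median 0.60).

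The steps that build the methionine-derived chain had large terms. MAM1 (AT5G23010), which starts each round of chain elongation, had 30.2, 29.2, 26.4 and 27.1 CPM in q-lsu-KO shoots under [dS] and 121, 108, 130 and 91.7 CPM in q-lsu-KO shoots under [nS]. WT shoots had 21.2, 18, 17.9 and 21.1 CPM under [dS] and 313, 238, 302 and 286 CPM under [nS]. q-lsu-KO libraries lay above WT libraries under [dS] and below them under [nS], and the term was 1.87 ± 0.17 (edgeR adjusted p = 6.36e-11). The fall under [dS] was 3.98-fold in q-lsu-KO and 14.5-fold in WT shoots. The isomerase subunits IPMI-SSU3 (1.78 ± 0.28) and IPMI-SSU2 (1.09 ± 0.20) and the dehydrogenase IPMDH1 (1.39 ± 0.16), which complete the elongation cycle, also passed. BAT5, the plastid transporter of the elongation intermediates, had 5.30, 12.1, 10.9 and 2.31 CPM in q-lsu-KO shoots under [dS] and 14.8, 10.9, 10.8 and 15.1 CPM in q-lsu-KO shoots under [nS]. WT shoots had 6.36, 5.03, 8.12 and 9.22 CPM under [dS] and 57.4, 41.1, 46.6 and 46.1 CPM under [nS]. Its WT [nS] libraries stood above all others, and its term was 1.99 ± 0.40 (edgeR adjusted p = 0.00612). Without q-lsu-KO [dS] replicate 2 that call was lost (adjusted p = 0.145).

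Later steps followed the same pattern. CYP83A1, which oxidizes aliphatic aldoximes, averaged 55.5 ± 2.75 CPM in q-lsu-KO and 61.0 ± 7.76 CPM in WT shoots under [dS], and 128 ± 8.69 CPM in q-lsu-KO and 329 ± 25.9 CPM in WT shoots under [nS] (SD, n = 4 each). Its term was 1.23 ± 0.13 (edgeR adjusted p = 9.12e-09). SOT17 (AT1G18590), a sulfotransferase of the last core step, had 12.2, 10.9, 16.4 and 12.7 CPM in q-lsu-KO shoots under [dS] and 16.1, 18.5, 10.2 and 16.0 CPM in q-lsu-KO shoots under [nS]. WT shoots had 7.63, 13.4, 13.5 and 11.9 CPM under [dS] and 59, 42.9, 61.5 and 61.6 CPM under [nS]. The fall under [dS] passed in WT shoots (4.78-fold), and the q-lsu-KO sulfur response was -0.24 on the log2 scale (edgeR adjusted p = 0.523). The flavin monooxygenases FMO-GS-OX3 (1.81 ± 0.25) and FMO-GS-OX1 (1.67 ± 0.36), which oxidize the side chain, the glutathione transferase GSTU20 (1.05 ± 0.14), the sulfotransferase SOT18 (1.01 ± 0.21) and the glucosyltransferase UGT74C1 (0.93 ± 0.20) passed too. FMO-GS-OX1 (adjusted p = 0.116) and UGT74C1 (0.0613) were lost in edgeR's fit without q-lsu-KO [dS] replicate 2.

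The supply of PAPS and the shared core moved with them. APK2 (AT4G39940), a kinase that makes PAPS, had 54.1, 44.4, 66.4 and 51.4 CPM in q-lsu-KO shoots under [dS] and 53.2, 66.3, 61.9 and 61.4 CPM in q-lsu-KO shoots under [nS]. WT shoots had 23.7, 38.5, 41.3 and 37.3 CPM under [dS] and 158, 134, 172 and 152 CPM under [nS]. The q-lsu-KO groups overlapped each other, while the WT groups were far apart, and the term was 1.92 ± 0.18 (edgeR adjusted p = 7.06e-09). APK1, its paralog, averaged 110 ± 9.05 CPM in q-lsu-KO and 102 ± 15.1 CPM in WT shoots under [dS], and 89.7 ± 8.98 CPM in q-lsu-KO and 149 ± 7.22 CPM in WT shoots under [nS] (SD, n = 4 each). SUR1, the C-S lyase, averaged 56.8 ± 4.59 CPM in q-lsu-KO and 50.9 ± 7.76 CPM in WT shoots under [dS], and 57.9 ± 2.46 CPM in q-lsu-KO and 116 ± 7.21 CPM in WT shoots under [nS] (SD, n = 4 each). Its term was 1.16 ± 0.15 and that of the glucosyltransferase UGT74B1 1.1 ± 0.18. GGP1, which trims the glutathione conjugate, was the core gene that did not pass (0.21 ± 0.11, edgeR adjusted p = 0.834).

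In the indole branch, CYP79B2, which makes the aldoxime from tryptophan, and CYP83B1, which oxidizes it, had terms of 1.81 ± 0.36 and 1.51 ± 0.21. Over the 14 tested genes of the indole list, the median genotype difference was 0.58 under [dS] and -0.01 under [nS]. The difference passed under [dS] for 3 genes, all higher in q-lsu-KO shoots. Under [nS] 5 passed as lower and 1 as higher, and 11 terms were above 0 and 3 below. CYP83B1 averaged 73.9 ± 13.5 CPM in q-lsu-KO and 56.5 ± 14 CPM in WT shoots under [dS], and 57.4 ± 5.54 CPM in q-lsu-KO and 127 ± 11.3 CPM in WT shoots under [nS] (SD, n = 4 each). GSTF9, a glutathione transferase placed in this pathway, had 541, 537, 529 and 509 CPM in q-lsu-KO shoots under [dS] and 516, 497, 503 and 455 CPM in q-lsu-KO shoots under [nS]. WT shoots had 381, 493, 464 and 471 CPM under [dS] and 1004, 924, 1073 and 961 CPM under [nS]. Its q-lsu-KO libraries hardly moved with sulfur (0.10 on the log2 scale, edgeR adjusted p = 0.325), its WT fall was 2.19-fold, and the term was 1.23 ± 0.10 (adjusted p = 1.45e-12).

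The 15 positive genes outside the GSL lists included genes of sulfur or methionine metabolism. The lists may not hold every GSL gene, so a place outside them does not show that a gene has no part in GSL synthesis. AK3, an aspartate kinase at the entry to methionine synthesis, had the largest positive term of all, 2.25 ± 0.40 (edgeR adjusted p = 0.000744). It had 4.77, 5.07, 2.73 and 8.66 CPM in q-lsu-KO shoots under [dS] and 18.2, 25.2, 11.4 and 9.26 CPM in q-lsu-KO shoots under [nS]. WT shoots had 4.24, 4.19, 5.41 and 4.23 CPM under [dS] and 71.1, 59.3, 67.8 and 52.5 CPM under [nS]. Both genotypes reached a like level under [dS], and the WT [nS] libraries were the high ones. MS2, a methionine synthase, averaged 207 ± 24.6 CPM in q-lsu-KO and 240 ± 22.8 CPM in WT shoots under [dS], and 259 ± 37.8 CPM in q-lsu-KO and 579 ± 59.4 CPM in WT shoots under [nS] (SD, n = 4 each). ATPS2, an ATP sulfurylase, averaged 13.5 ± 0.98 CPM in q-lsu-KO and 16.0 ± 1.77 CPM in WT shoots under [dS], and 24.8 ± 5.40 CPM in q-lsu-KO and 67.6 ± 8.40 CPM in WT shoots under [nS] (SD, n = 4 each). It was the only ATP sulfurylase of 4 to pass, with a term of 1.17 ± 0.24. CB5-C, a cytochrome b5, and the aspartate aminotransferase ASP4 had terms of 1.64 ± 0.24 and 1.84 ± 0.42. SBP2 (selenium-binding), PMSR2 (methionine sulfoxide reductase), DJ1F, AT2G25450, AT5G44720 (molybdenum cofactor sulfurase family) and AT3G23570 (a hydrolase) lay between 0.71 and 1.32. SBP2 sits beside its close copy SBP1, whose term was -0.49 ± 0.10, so their counts are uncertain.

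**Figure D3:**
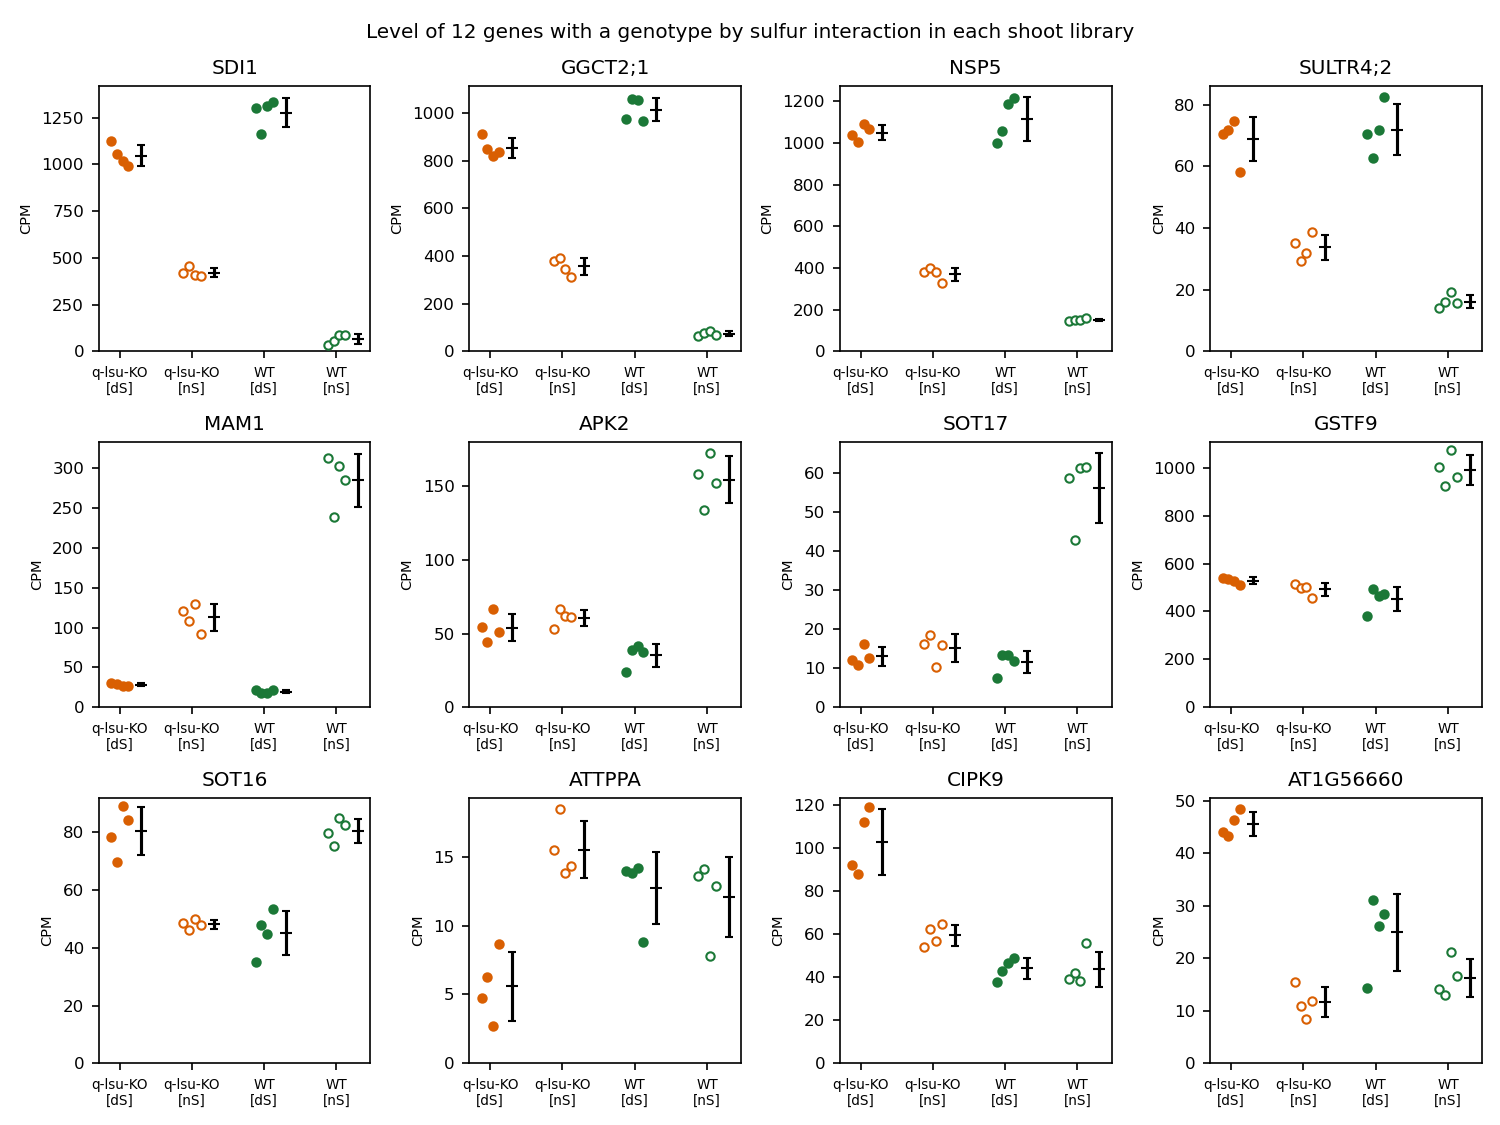
CPM of 12 interaction genes in each shoot library, by genotype (orange q-lsu-KO, green WT) and medium (filled [dS], open [nS]), with the mean ± SD of 4 libraries in black and every vertical axis starting at 0. In the upper row the WT [nS] libraries are the lowest, in the middle row they are the highest, and in the lower row the genotypes also differ, or mainly differ, under [dS].

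In 6 genes the genotype difference passed under [dS]. For LSU1 and SOT16 the difference passed in both media, and for ATTPPA, CIPK9, AT1G56660 and AT1G29320 it passed under [dS] and not under [nS]. Missing the call under [nS] does not show equal levels there: the difference under [nS] was 0.43 on the log2 scale for CIPK9 (edgeR adjusted p = 0.0396, less than 1.5-fold) and -0.84 for AT1G29320 (adjusted p = 0.0618), against 0.83 under [dS]. SOT16, a sulfotransferase of indole GSL synthesis, had 78.5, 69.8, 89.1 and 84.3 CPM in q-lsu-KO shoots under [dS] and 48.4, 46.2, 49.9 and 48.0 CPM in q-lsu-KO shoots under [nS]. WT shoots had 35.2, 47.7, 44.7 and 53.4 CPM under [dS] and 79.6, 75.2, 84.8 and 82.5 CPM under [nS]. The responses crossed, with a rise of 1.65-fold in q-lsu-KO and a fall of 1.77-fold in WT shoots, and the term was 1.55 ± 0.16 (edgeR adjusted p = 6.10e-09).

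CIPK9, a protein kinase known from potassium deficiency, had 91.8, 87.7, 112 and 119 CPM in q-lsu-KO shoots under [dS] and 53.8, 62.1, 56.5 and 64.8 CPM in q-lsu-KO shoots under [nS]. WT shoots had 37.7, 42.7, 46.7 and 48.8 CPM under [dS] and 39.3, 41.7, 38.1 and 55.7 CPM under [nS]. Only q-lsu-KO shoots rose, and the [dS] groups did not overlap (term 0.78 ± 0.18, edgeR adjusted p = 0.0174). AT1G56660, annotated as a MAEBL domain protein, averaged 45.5 ± 2.36 CPM in q-lsu-KO and 25 ± 7.32 CPM in WT shoots under [dS], and 11.6 ± 2.92 CPM in q-lsu-KO and 16.2 ± 3.66 CPM in WT shoots under [nS] (SD, n = 4 each). It rose in both genotypes and by more in q-lsu-KO shoots. AT1G29320, a WD-repeat protein, averaged 10.0 ± 1.58 CPM in q-lsu-KO and 5.62 ± 1.44 CPM in WT shoots under [dS], and 5.87 ± 0.79 CPM in q-lsu-KO and 10.4 ± 1.18 CPM in WT shoots under [nS] (SD, n = 4 each).

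ATTPPA, a trehalose-6-phosphate phosphatase, had 4.77, 6.24, 2.73 and 8.66 CPM in q-lsu-KO shoots under [dS] and 15.5, 18.5, 13.8 and 14.3 CPM in q-lsu-KO shoots under [nS]. WT shoots had 14, 13.8, 14.2 and 8.84 CPM under [dS] and 13.6, 14.1, 7.77 and 12.9 CPM under [nS]. It fell in q-lsu-KO shoots only (2.60-fold), with a term of -1.43 ± 0.35 (edgeR adjusted p = 0.0423). In DFL2, a member of the GH3 family, and NUDT17, a nudix hydrolase, neither genotype difference passed. DFL2 averaged 81.3 ± 2.0 CPM in q-lsu-KO and 116 ± 13.4 CPM in WT shoots under [dS], and 74.8 ± 4.84 CPM in q-lsu-KO and 69.7 ± 5.43 CPM in WT shoots under [nS] (SD, n = 4 each). NUDT17 averaged 104 ± 11.3 CPM in q-lsu-KO and 72.6 ± 10.8 CPM in WT shoots under [dS], and 67.5 ± 13.8 CPM in q-lsu-KO and 85.5 ± 4.13 CPM in WT shoots under [nS] (SD, n = 4 each). GATL6, a galacturonosyltransferase relative, had sulfur responses of -0.58 in q-lsu-KO and 0.65 in WT shoots on the log2 scale, of which only the WT rise passed.

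In the edgeR fits that left out 1 library at a time, 46 of the 62 genes passed in all 16, LSU1 and SOT16 among them. ATTPPA passed in 3 of these fits (adjusted p up to 0.136), CIPK9 in 10 (up to 0.109), AT1G29320 in 12 (up to 0.0715) and AT1G56660 in 13 (up to 0.105). ATTPPA kept its call only without WT [dS] replicate 4, WT [nS] replicate 2 or q-lsu-KO [dS] replicate 4. CIPK9 lost it without WT [dS] replicate 1, WT [nS] replicate 4, q-lsu-KO [dS] replicate 3 or 4, or q-lsu-KO [nS] replicate 1 or 3. AT1G56660 lost it without WT [nS] replicate 3 or q-lsu-KO [nS] replicate 2 or 3, and AT1G29320 without WT [dS] replicate 3, WT [nS] replicate 1, q-lsu-KO [dS] replicate 1 or q-lsu-KO [nS] replicate 3. AT3G23570 passed in 5 (up to 0.114), GATL6 in 7 (up to 0.0983), AT5G37980 in 9 (up to 0.164), ADC2 in 10 (up to 0.113), DFL2 in 10 (up to 0.0974), PYD4 in 11 (up to 0.0878), ICS2 in 12 (up to 0.0847) and ASP4 in 12 (up to 0.111). LSU3 also passed in 12, and UGT74C1, FMO-GS-OX1 and BAT5 in 15. Each of the 16 libraries decided between 1 call (WT [dS] replicate 4) and 12 calls (q-lsu-KO [dS] replicate 2), and no term changed its sign.

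Other genes of sulfur metabolism were counted from lists that cover the pathway. Of 13 tested sulfur deficiency markers 7 passed, all with a negative term, and 12 of the 13 terms were below 0 (median -1.27, against -0.01 for all genes). SULTR1;2, a sulfate uptake transporter, NIT3, a nitrilase, and APR3, an APS reductase, were among those that did not pass, at -1.27 ± 0.45, -1.13 ± 0.33 and -0.91 ± 0.20 (edgeR adjusted p = 0.463, 0.202 and 0.0805). APR3 averaged 317 CPM in q-lsu-KO and 359 CPM in WT shoots under [dS], and 307 CPM in q-lsu-KO and 186 CPM in WT shoots under [nS]. The APR3 call depended on the method, as its term passed with DESeq2 (-0.90, adjusted p = 0.000442). In edgeR it passed without WT [dS] and WT [nS] replicate 1 (-0.77, adjusted p = 0.00202). Of the 16 edgeR fits without 1 library, it passed in 2. BGLU30, a beta-glucosidase, rose strongly in both genotypes (6.32 in q-lsu-KO and 6.55 in WT shoots on the log2 scale), with a term of -0.23 ± 0.85.

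The counts of the next lists stand beside 62 of 14593 over all tested genes, where 900 had an unadjusted p (edgeR) under 0.05. In sulfate reduction and cysteine synthesis SERAT3;2 and ATPS2 passed of 16 tested genes. Of these 16, 6 had an unadjusted p under 0.05, and the median term was 0.09. The terms of ATPS1, ATPS3 and ATPS4 were 0.38 ± 0.11, 0.05 ± 0.24 and 0.24 ± 0.25, those of APR1 and APR2 -0.29 ± 0.13 and -0.32 ± 0.14, and that of sulfite reductase SIR 0.20 ± 0.14. In glutathione metabolism GGCT2;1 alone passed of 10, with a median of 0.01, and the synthesis genes GSH1 and GSH2 had 0.37 ± 0.15 and -0.06 ± 0.18. In GSL breakdown BGLU28 and NSP5 passed of 15, with a median of -0.09, and the classical myrosinases TGG1 and TGG2 had -0.25 ± 0.10 and -0.33 ± 0.14. The sulfate transporter SULTR2;1 had 0.03 ± 0.16. In methionine and S-adenosylmethionine metabolism MS2 alone passed of 13.

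Several GSL genes with low counts under [dS] had large terms that did not pass. BCAT4, the first aminotransferase of chain elongation, had 2.73 to 5.19 CPM in q-lsu-KO and 4.66 to 9.63 CPM in WT shoots under [dS], and 22.2 to 34.9 CPM in q-lsu-KO and 102 to 158 CPM in WT shoots under [nS]. Its term was 1.44 ± 0.38 (edgeR adjusted p = 0.0982). CYP79F1 and CYP79F2, close copies that make aliphatic aldoximes, had 1.09 ± 0.44 and 1.46 ± 0.47 (adjusted p = 0.685 and 0.302), MAM3 1.00 ± 0.28 (0.131) and AOP2 1.95 ± 0.58 (0.212). The regulator MYB28 was lower in q-lsu-KO shoots in both media (-0.80 under [dS] and -0.85 under [nS] on the log2 scale) with a term of 0.05 ± 0.18, and MYB29 had 0.99 ± 0.44. ERD7 (0.66, adjusted p = 0.0535) and SIP1;2 (-1.04, 0.0548) were just outside and ATTPPA just inside, and GAPC2, SAM4, GRP3S, IPMI-LSU1, SBP1 and LTL1 passed the adjusted p but not the 1.5-fold limit in edgeR.

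**Figure D4:**
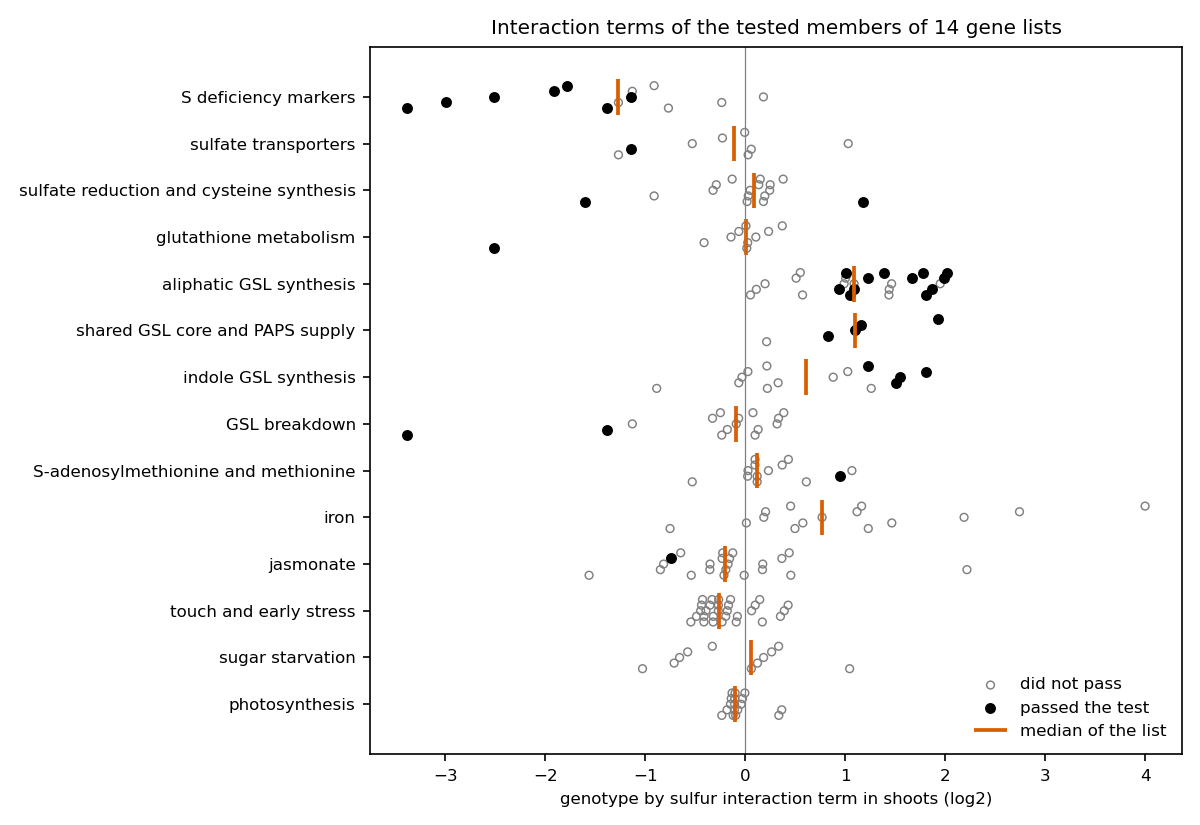
Interaction terms (log2) in shoots of the tested members of 14 gene lists, with filled points for genes that passed, open points for those that did not, and an orange bar at the list's median. Terms that passed lie to the left in the list of sulfur deficiency markers (7) and to the right in the 3 GSL synthesis lists (12, 4 and 4), and none passed for iron, touch, sugar starvation or photosynthesis.

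No gene passed in 14 other lists. They cover photosynthesis, the circadian clock, senescence, and starvation for iron, sugar or phosphate. Others cover nitrate, flavonoids, core hypoxia, touch and early stress, cold and abscisic acid, defense through salicylate and pattern receptors, and root markers. The last is a list of glutathione transferases that leaves out GSTF9 and GSTU20, described above. Over all tested genes 62 of 14593 passed, and at that share lists of this size would mostly hold none. Some were hardly tested, such as core hypoxia (4 of 16 listed genes) and root markers (1 of 12). The median genotype difference of the touch and early stress genes was 1.29 under [dS] and 1.45 under [nS], and 0 of 29 had an interaction that passed, with a median SE of 0.86. Their summed level was 3597 to 4772 CPM in q-lsu-KO shoots under [dS], 3004 to 3283 CPM in q-lsu-KO shoots under [nS], 555 to 2652 CPM in WT shoots under [dS] and 367 to 1626 CPM in WT shoots under [nS], so WT libraries differed severalfold among themselves, and its part in the interaction was not tested. In the iron list 14 of 15 terms were above 0 (median 0.77) and 0 passed. IMA3, a small peptide of iron signaling, had 5.83 to 14.4 CPM in q-lsu-KO and 6.43 to 22.3 CPM in WT shoots under [dS], and 32 to 168 CPM in q-lsu-KO and 197 to 338 CPM in WT shoots under [nS], with a term of 1.12 ± 0.86.

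The same term was computed in the 16 root libraries, which the shoot test did not use. There 4 of 15971 genes passed (0.025%), none of them among the 62, and 972 had an unadjusted p under 0.05. Of the 27 shoot genes with a negative term, 26 were tested in roots, 25 of these had a term below 0, and the median was -0.34. Of the 35 with a positive term, 33 were tested in roots, 23 had a term above 0, and the median was 0.16. The share of all root genes with a term above or below 0 is not given here, so these counts are a description and no test. WT roots responded to sulfur in these genes (median 1.96 for the negative and -1.18 for the positive genes), and the q-lsu-KO root medians were 1.47 and -1.1. The median genotype difference in roots under [nS] was 0.20 for the negative and -0.09 for the positive genes.

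The difference between the tissues was tested in 1 model of all 32 libraries, where 18 of 17918 genes passed (0.1%). Of these, 17 were among the 62, and in each the shoot term was the larger in size. The 62 were chosen by their shoot terms in the same shoot libraries, which favors a larger term in shoots. SDI1 had a term of -2.99 ± 0.28 in shoots and -0.71 ± 0.15 in roots, and the terms differed by -2.29 (edgeR adjusted p = 0.00100). APK2 had 1.92 ± 0.18 in shoots and 0.32 ± 0.13 in roots, a difference of 1.61 (adjusted p = 5.54e-06). The others were GGCT2;1, NSP5, AT3G56200 and MSRB5 among the negative genes and MS2, GSTF9, SUR1, UGT74B1, SOT18, IPMDH1, CYP83B1, SOT16, CB5-C, SOT17 and ASP4 among the positive ones. For the remaining genes a difference between the tissues did not pass, which does not show that the terms were alike.

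**Figure D5:**
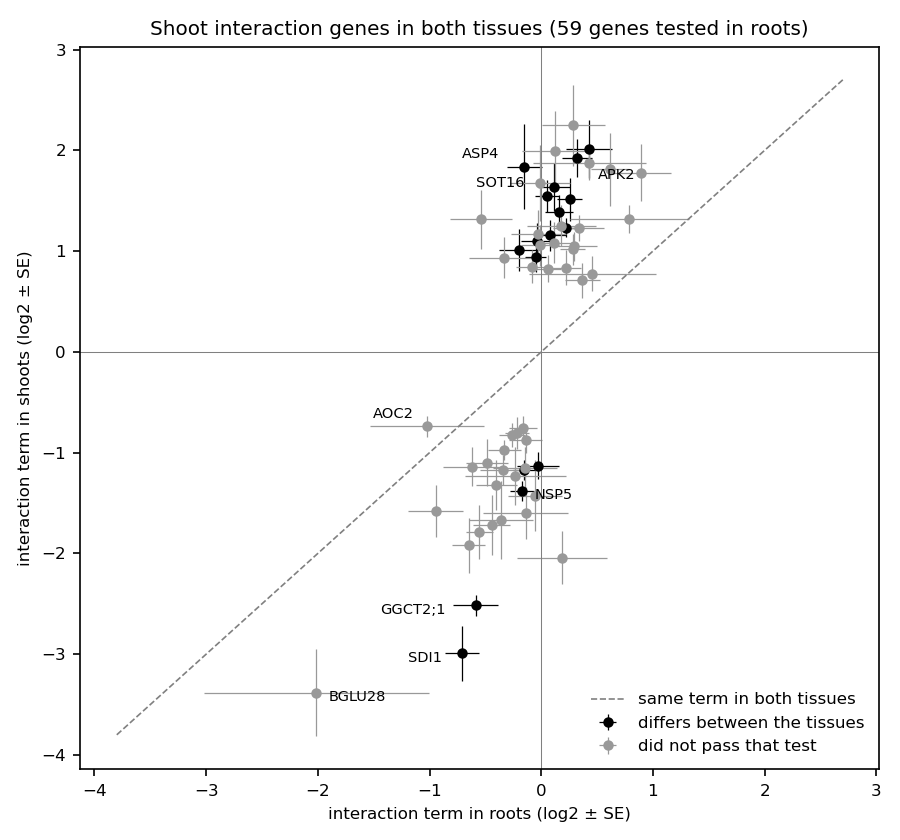
Interaction term (log2 ± SE) in shoots (vertical axis) and in roots (horizontal axis) of the 59 shoot interaction genes that were also tested in roots (26 negative and 33 positive), with a dashed line of equal terms. Points gather near 0 on the root axis, and the 17 genes in black had terms that differed between the tissues.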

How the data were processed

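3′RNA-seq libraries from 16 shoot and 16 root samples were analysed. Per the labels and the submitters' processing notes, the authors aligned reads with STAR 2.7.8a to TAIR10, and the deposited values are raw counts per gene, 1 file a library. For the counting program, strand use and molecular identifiers, the sources used here give nothing. Of 37336 genes in each file, 14593 passed a filter on low counts (filterByExpr, minimum count 10). A model of 4 group means was fitted with edgeR 4.0.16 (TMM factors, quasi-likelihood F-test) in R 4.3.3, and the interaction, the sulfur response of each genotype and the genotype difference in each medium were taken from it. Calls needed an adjusted p (Benjamini-Hochberg) under 0.05 and a change over 1.5-fold. Roots, and both tissues together, were fitted alike. Alternatives used DESeq2 1.42.0, limma 3.58.1, other scalings and filters, a replicate block, thinned counts and fits without each library. The scripts were tested on simulated data. Named genes included the 10 largest terms in each direction among called genes that also passed in every fit without 1 library. Others had the smallest interaction p in their class of genotype difference (under [nS], [dS], both or neither). LSU genes, genes the study names and list members were named too. The members and lists were chosen with earlier results of these data known. Promoter windows came from RefSeq's TAIR10.1 by locus tag.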

Additional observations from a re-analysis of the deposited data

Results flagged for a closer look

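Chance marks about 1 in 20 groups of 4 as holding a library far from the rest, and 80 groups were tested. CYP83B1 had 53.8 CPM in q-lsu-KO [dS] replicate 2, and 79.1 to 82.5 CPM in the other q-lsu-KO [dS] libraries. SOT17 had 42.9 CPM in WT [nS] replicate 2, and 59 to 61.6 CPM in the other WT [nS] libraries. AK3 had 5.41 CPM in WT [dS] replicate 3, and 4.19 to 4.24 CPM in the other WT [dS] libraries.

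For 17 of the 62 genes the interaction differed between shoots and roots in the model of 32 libraries. The shoot term minus the root term, on the log2 scale, was -2.29 for SDI1, -1.92 for GGCT2;1, -1.20 for NSP5, -1.10 for AT3G56200 and -1.01 for MSRB5. It was 1.00 for MS2, 1.02 for GSTF9, 1.09 for SUR1, 1.14 for UGT74B1, 1.21 for SOT18 and 1.24 for IPMDH1. It was 1.26 for CYP83B1, 1.5 for SOT16, 1.52 for CB5-C, 1.59 for SOT17, 1.61 for APK2 and 1.98 for ASP4.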

How the results depend on the processing

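Against 62 calls, DESeq2 gave 57 (55 of the 62 among them), RLE size factors 65 (62), no filter 81 (62), voom with sample weights 58 (57) and thinned counts 43 (39). Fits without 1 library gave 53 to 68. A test against the 1.5-fold limit (glmTreat) called 14 positive and 11 negative genes, 24 of them with the larger genotype difference under [nS], and thinned counts called 21 positive genes. The number of genes with the larger difference under [dS] (3) was 1 with DESeq2, 5 with RLE size factors, 9 with no filter, 6 with the replicate block, 5 with the adjusted p alone, 0 with glmTreat, 0 with voom and 0 to 9 without 1 library. As differences of mean CPM, chosen after seeing the data, BGLU28 (30.4) and LSU1 (535) turned positive. Neither difference was tested. The causes were not tested.

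The replicate block gave 68 calls in shoots (59 of the 62) and 7 in roots, against 4. Deviations of same-numbered libraries correlated between -0.10 and 0.25 over the 24 pairs of all groups, with 5 over 0.1, and between -0.10 and 0.04 over the 8 pairs within a medium, with 0 over 0.1. Pairs with different numbers correlated between -0.13 and 0.13 within a medium. WT [nS] replicate 1 had 0.17 with WT [dS] replicate 2 and -0.29 with WT [dS] replicate 4. So not every same-numbered pair deviated together, although some did, and pairs with different numbers reached values over 0.1 too. The labels do not say what a number shares. In WT shoots the summed touch genes of replicates 1 to 4 were 555, 985, 1582 and 2652 CPM under [dS] and 367, 605, 932 and 1626 CPM under [nS]. In roots DESeq2 gave 3 calls, and the shoot-root difference had 27 with DESeq2 and 960 genes at an unadjusted p under 0.05. Low counts limit the test of weakly expressed genes.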
